A study of Mus musculus with 23 samples.

Results

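The NR4A and TOX factors followed here are 5 genes, Nr4a1, Nr4a2, Nr4a3, Tox and Tox2, taken by symbol from an RNA table of 35645 genes, together with every ATAC-seq peak that the authors' table gives to 1 of them, which came to 37 of 51412 peaks. All 5 genes and all 37 peaks passed the filter on low counts, although Tox2 did so through counts in 4 of 15 libraries.

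NR4A proteins are orphan nuclear receptors that are transcribed within minutes to hours of stimulation, and in lymphocytes their genes are known targets of antigen receptor and calcium signals. TOX proteins bind DNA through an HMG box. In chronically stimulated CD8 T cells of mice, calcineurin and NFAT induce Tox, and Tox with the Nr4a genes belongs to the program called exhaustion. Tox is also required for the development of mouse NK cells and innate lymphoid cells.

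The study set natural killer (NK) cells beside type 1 innate lymphoid cells (ILC1s), tissue-resident relatives of NK cells, and sorted liver ILC1s by granzyme C, a protease of cytotoxic granules. RNA was sequenced from 4 liver populations of 6 mice, with 1 mouse per library. DP ILC1s were GzmC+GzmcFM+, that is, they had granzyme C at the time of sorting and carried its fate map (4 libraries, mice 3 to 6). FMSP ILC1s were GzmC-GzmcFM+, with past granzyme C (4 libraries, mice 3 to 6), and DN ILC1s were GzmC-GzmcFM-, with no history of it (3 libraries, mice 2, 4 and 6). NK cells were S1pr5eGFP+ (4 libraries, mice 1, 4, 5 and 6). Strain, age and the construction of the reporter alleles are not given in the sources used here. ATAC-seq, which counts reads from open chromatin, covered salivary gland ILC1s, liver ILC1s, spleen NK cells and liver NK cells, with 2 libraries each. The sample labels describe these ATAC cells by reporter, as GzmC+GzmcFM+ or S1pr5eGFP+, but the series text describes them by surface gate, as NK1.1+NKp46+CD49a+ for ILC1s and NK1.1+NKp46+CD49a-CD49b+ for NK cells. RNA and ATAC came from different libraries, and salivary gland ILC1s were compared with NK cells of another organ, the spleen, so that organ and cell type cannot be told apart in that pair. Per the labels' protocols, liver and salivary gland were digested with collagenase and the spleen was disrupted between glass slides, and this too cannot be told apart from organ.

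RNA libraries held 51641248 to 73309063 counts, and ATAC libraries 5609587 to 26944890. Sorting genes followed the labels: Gzmc averaged 374 ± 83.6 CPM (counts scaled to library size, ± SD) in DP, 30.4 ± 8.68 in FMSP, 11.4 ± 1.87 in DN and 2.31 ± 1.34 in NK libraries (n = 4, 4, 3 and 4). S1pr5 had 3.24 to 10.8 CPM in DP, 14.2 to 21.8 in FMSP, 34.7 to 99.8 in DN and 310 to 872 in NK libraries. For the mean of the ILC1 populations against NK, all 6 liver ILC1 markers were called higher and all 8 conventional NK cell markers lower. For DN against NK, 6 of these 8 were called lower. The leading principal component of the RNA, with 19.4% of the variance, set the 4 libraries of mice 1 to 3 apart from the 11 of mice 4 to 6. For the member genes, values within mice 4 to 6 are therefore given where they change a call. Calls of the other genes named below were not examined within these mice. Nothing else about the mice is used, and p-values rest on the spread between these libraries. For ATAC the fit took the spread of a typical peak from all peaks together (median prior degrees of freedom infinite, residual 4). Small ATAC p-values therefore rest mainly on that shared spread and less on the 2 libraries per group at a peak.

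The promoter windows of the NR4A genes are shown because the peaks at their start sites, described below, contain them. The inner Nr4a2 peak, the upstream Nr4a3 peak and the Tox peaks described below hold none of these windows. They are RefSeq sequences (GRCm38.p6, the assembly of mm10), from 250 bases before to 50 bases after the start, 5′ to 3′ on the gene's strand. Nr4a1 lies at chr15:101266596-101266895 on the plus strand, Nr4a2 at chr2:57123954-57124253 on the minus strand and Nr4a3 at chr4:48045055-48045354 on the plus strand. Capitals mark TGACG on either strand, the core of the cAMP response element to which CREB proteins bind.
Nr4a1: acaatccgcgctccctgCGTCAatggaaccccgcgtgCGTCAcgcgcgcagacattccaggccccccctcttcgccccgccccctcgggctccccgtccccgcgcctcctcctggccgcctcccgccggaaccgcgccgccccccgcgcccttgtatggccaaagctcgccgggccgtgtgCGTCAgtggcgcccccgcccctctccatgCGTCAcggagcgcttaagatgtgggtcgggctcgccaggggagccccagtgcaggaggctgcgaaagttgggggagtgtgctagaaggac
Nr4a2: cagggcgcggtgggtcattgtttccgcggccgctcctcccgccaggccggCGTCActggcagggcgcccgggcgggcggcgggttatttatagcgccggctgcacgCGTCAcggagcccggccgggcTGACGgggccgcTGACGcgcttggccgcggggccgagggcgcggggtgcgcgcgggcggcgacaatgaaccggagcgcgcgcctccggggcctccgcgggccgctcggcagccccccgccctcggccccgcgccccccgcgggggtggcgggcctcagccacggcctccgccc
Nr4a3: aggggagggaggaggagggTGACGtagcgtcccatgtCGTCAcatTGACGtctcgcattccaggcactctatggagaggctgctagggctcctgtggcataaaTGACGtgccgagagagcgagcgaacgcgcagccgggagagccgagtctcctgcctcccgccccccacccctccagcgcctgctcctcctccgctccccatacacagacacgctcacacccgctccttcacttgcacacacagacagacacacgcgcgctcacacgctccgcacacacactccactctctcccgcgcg
Each of the 3 windows held 4 such cores. Of 32851 RefSeq windows of this length, 20.8% held at least 1 core and 0.231% held at least 4. None of the 3 held the full element TGACGTCA (1.79% of windows), the AP-1 motif TGANTCA (7.81%) or the monomer element that NR4A proteins bind, AAAGGTCA (1.51%). All motifs were searched on both strands, and the core is part of the full element. GGAAA, the core that NFAT proteins bind, occurred in the Nr4a2 window alone (61.3% of all windows). GC content was 72.3% for Nr4a1, 81.7% for Nr4a2 and 64.7% for Nr4a3, against a median of 52.7% over all windows. The motif shares above cover all windows and were not matched for GC content. The table matched 4 of the 5 genes. Tox2 had several windows, of which that at chr2:163203936-163204235 held 1 core. The other Tox2 windows, such as chr2:163202877-163203176, held no core. Tox was not among the genes matched.

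Tox RNA was higher in each ILC1 population than in NK cells, and it was the only 1 of the 5 genes called in any comparison. Tox had 144, 203, 232 and 159 CPM in DP libraries (mice 3 to 6), 185, 174, 174 and 156 CPM in FMSP libraries (mice 3 to 6), and 59.0, 128 and 112 CPM in DN libraries (mice 2, 4 and 6), against 46.2, 36.9, 60.9 and 39.5 CPM in NK libraries (mice 1, 4, 5 and 6). Every DP and FMSP library lay above every NK library, and among DN libraries that of mouse 2 fell just below the highest NK library. The mean of the ILC1 populations exceeded NK by 1.68 ± 0.23 on the log2 scale (SE, 3.20-fold), with an adjusted p of 2.28e-04 in edgeR's quasi-likelihood test, Benjamini-Hochberg adjusted over 17124 genes. That comparison called 5.92% of all genes (2.90% higher, 3.02% lower). In bulk libraries, a change in how many cells express a gene and a change in RNA per cell cannot be told apart.

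By population, Tox averaged 184 ± 40.6 CPM in DP and 45.9 ± 10.8 CPM in NK libraries (SD, n = 4 each), a log2 difference of 2.01 ± 0.26 (SE, adjusted p = 1.92e-04, edgeR). FMSP libraries averaged 172 ± 12.03 CPM (SD, n = 4), 1.91 ± 0.26 above NK on the log2 scale (adjusted p = 3.07e-04, edgeR). DN libraries averaged 99.4 ± 35.9 CPM (SD, n = 3), 1.12 ± 0.27 above NK (adjusted p = 0.0336, edgeR). Tox alone of the members was called in each of these comparisons, which called 4.08% of genes for DP, 4.07% for FMSP and 2.99% for DN. The DP and FMSP calls held in all 16 alternatives run for each, and that of the ILC1 mean in all 22. The DN call held in 9 of 15, with adjusted p from 3.76e-04 to 0.149. It was lost without NK of mouse 1 (adjusted p = 0.0772), NK of mouse 4 (0.112), NK of mouse 6 (0.103), DN of mouse 4 (0.147) or DN of mouse 6 (0.117), and with only DN and NK libraries in the fit (0.149), in the same edgeR test. In a fit with mouse as a block the DN difference was 1.54 (adjusted p = 0.00150, edgeR), and within mice 4 to 6 it was 1.38 (adjusted p = 0.00254, edgeR).

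In order of Tox level, DP and FMSP stood next to each other and did not differ beyond their spread (log2 0.10 ± 0.25, 95% interval -0.43 to 0.63). DP stood above DN by 0.89 ± 0.27 and FMSP above DN by 0.79 ± 0.27 on the log2 scale. Libraries did not overlap in either case, as for 8.34% and 4.97% of all genes. Neither difference was called (adjusted p = 0.341 and 0.649, edgeR). No member was called among the ILC1 populations, where the same test called 0.0584% of genes for DP against DN, and 0.00584% for FMSP against DN and for DP against FMSP. Before adjustment, p was below 0.05 for 3 of 5 members and 1754 of 17124 genes for DP against DN, for 1 member and 1164 genes for FMSP against DN, and for 2 members and 769 genes for DP against FMSP. The first and last of these counts include Tox2, whose fits rest on few libraries. DESeq2 called Tox alone, for DP against DN (adjusted p = 0.0373). Sorting markers moved with the DN values: the 8 conventional NK cell markers summed to 67.1 to 133 CPM in DP, 54.5 to 110 CPM in FMSP and 193 to 804 CPM in DN libraries, and the 6 liver ILC1 markers to 2253 to 2391 CPM in DP, 1873 to 2051 CPM in FMSP and 1042 to 1790 CPM in DN libraries. Their part in the DN values of Tox, and of Nr4a2 below, was not tested.

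**Figure D1:**
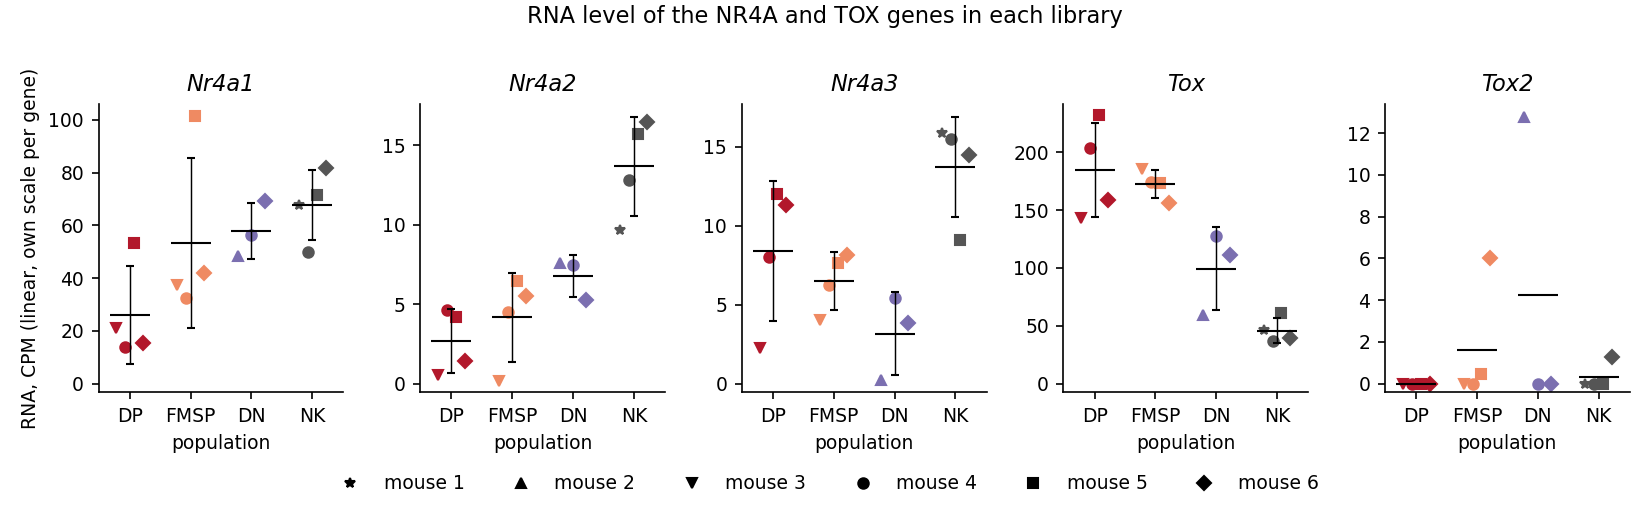
RNA level (CPM, linear, own scale per gene) of the 5 genes in each library, by population on the x axis, with 1 symbol per mouse, the group mean as a line and the SD as whiskers (no SD for Tox2, which is at 0 in most libraries). Tox lies above the NK libraries in all DP and FMSP libraries, and Nr4a2 lies below the NK libraries in every ILC1 library.

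T cell markers were also higher in ILC1 libraries, and T cells can express Tox. Of 12 such markers 8 were called higher in ILC1s and 0 lower, and their summed level was 1932 to 2941 CPM in DP, 2082 to 3506 in FMSP and 2228 to 3033 in DN, against 556 to 841 CPM in NK libraries. Among the ILC1 populations the markers took different orders. Cd3g, a chain of the T cell receptor complex, had 316 to 1153 CPM (median 764) in DP, 386 to 949 CPM (median 682) in FMSP and 156 to 558 CPM (median 285) in DN libraries, against 2.07 to 16.7 CPM in NK libraries, the same order of medians as the Tox means. Cd3e, another chain of that complex, ran from 14.6 to 62.4 CPM in DP and from 165 to 536 CPM in DN libraries, against 1.56 to 22.1 CPM in NK libraries. Trac, the constant region of the receptor's alpha chain, was at 13.3 to 45.5 CPM in DP libraries, against 11.4 to 28.1 CPM in NK libraries, and Cd5 and Cd6 were each at 0 in 2 of 4 DP libraries. Among ILC1s the medians of Cd3e, Trac, Cd5 and Cd6 were lowest in DP, where the Tox mean was highest. The sum of all 12 markers had medians of 2547 CPM in DP, 2821 in FMSP and 2265 in DN, and so was lowest in DN, where the Tox mean was lowest. The part of T cells in the Tox values was not tested further.

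Nr4a2, which encodes the receptor also called Nurr1, was lower in every ILC1 library than in any NK library, but the difference was not called. It had 0.557, 4.63, 4.23 and 1.46 CPM in DP libraries (mice 3 to 6), 0.187, 4.51, 6.49 and 5.51 CPM in FMSP libraries (mice 3 to 6), and 7.58, 7.504 and 5.26 CPM in DN libraries (mice 2, 4 and 6), against 9.68, 12.8, 15.7 and 16.5 CPM in NK libraries (mice 1, 4, 5 and 6). Both libraries of mouse 3 were far below the rest. The mean of the ILC1 populations was lower by a log2 difference of -1.69 ± 0.62 (SE, 95% interval -3.01 to -0.36), with an adjusted p of 0.159 in edgeR's test. Within mice 4 to 6 it was -1.61 and was called (adjusted p = 0.0123, edgeR), and a fit with mouse as a block gave -1.60 (adjusted p = 0.0644, edgeR). Nr4a2 was the 1 member of 5 with no overlap between all ILC1 and all NK libraries, a property of 4.91% of genes.

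Nr4a2 averaged 2.72 ± 2.02 CPM in DP, 4.17 ± 2.78 in FMSP, 6.78 ± 1.31 in DN and 13.7 ± 3.11 in NK libraries (SD, n = 4, 4, 3 and 4). The log2 differences from NK were -2.33 ± 0.84 for DP, -1.71 ± 0.82 for FMSP and -1.01 ± 0.89 for DN, with adjusted p of 0.186, 0.372 and 0.660 (edgeR). That of DP was called within mice 4 to 6 (adjusted p = 0.0160, edgeR) and by DESeq2 (adjusted p = 0.0229). The ILC1 populations followed the order DN, FMSP, DP, and neighbours in it overlapped. Every DP library lay below every DN library, a lack of overlap shown by 8.34% of all genes.

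Nr4a1, which encodes Nur77 and is widely used as a reporter of antigen receptor signals, had its lowest mean in DP cells. It had 21.2, 13.8, 53.4 and 15.5 CPM in DP libraries (mice 3 to 6), 37.4, 32.5, 101 and 41.9 CPM in FMSP libraries (mice 3 to 6), and 48.4, 56.2 and 69.1 CPM in DN libraries (mice 2, 4 and 6), against 67.8, 49.8, 71.5 and 81.8 CPM in NK libraries (mice 1, 4, 5 and 6). In mouse 5 the value was the highest of both the DP and the FMSP group, and DP of mouse 5 was the 1 DP library inside the NK range. DP was lower than NK by a log2 difference of -1.38 ± 0.44 (SE, 95% interval -2.32 to -0.44), which was not called (adjusted p = 0.118, edgeR). The difference passed the threshold when mouse entered the fit as a block (-1.56, adjusted p = 0.0110, edgeR), without DP of mouse 5 (-2.005, adjusted p = 0.00894, edgeR) and by DESeq2 (-1.40, adjusted p = 0.0248). FMSP and DN differed from NK by -0.34 ± 0.43 and -0.23 ± 0.47 on the log2 scale (adjusted p = 0.842 and 0.879, edgeR). The other 3 FMSP libraries lay below every NK library, and without FMSP of mouse 5 the FMSP difference was -0.86, still with no call (adjusted p = 0.398, edgeR).

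Nr4a3, which encodes NOR1, was lower on average in all ILC1 populations without a call. It had 2.26, 8.02, 11.99 and 11.3 CPM in DP libraries (mice 3 to 6), 4.03, 6.27, 7.64 and 8.13 CPM in FMSP libraries (mice 3 to 6), and 0.257, 5.45 and 3.83 CPM in DN libraries (mice 2, 4 and 6), against 15.9, 15.5, 9.08 and 14.5 CPM in NK libraries (mice 1, 4, 5 and 6). FMSP and DN libraries all lay below the NK libraries, and DP libraries of mice 5 and 6 lay inside the NK range. The log2 differences from NK were -0.71 ± 0.70 for DP, -1.08 ± 0.71 for FMSP and -2.11 ± 0.81 for DN, and -1.30 ± 0.55 for the ILC1 mean (SE, adjusted p = 0.810, 0.573, 0.207 and 0.231, edgeR). DESeq2 called the DN difference (adjusted p = 0.0379). Lack of overlap with NK libraries was shown by 2 of 5 members in DP (Nr4a2 and Tox), 3 in FMSP (Nr4a2, Nr4a3 and Tox) and 2 in DN (Nr4a2 and Nr4a3), against 11.8%, 10.9% and 14.8% of all genes.

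**Figure D2:**
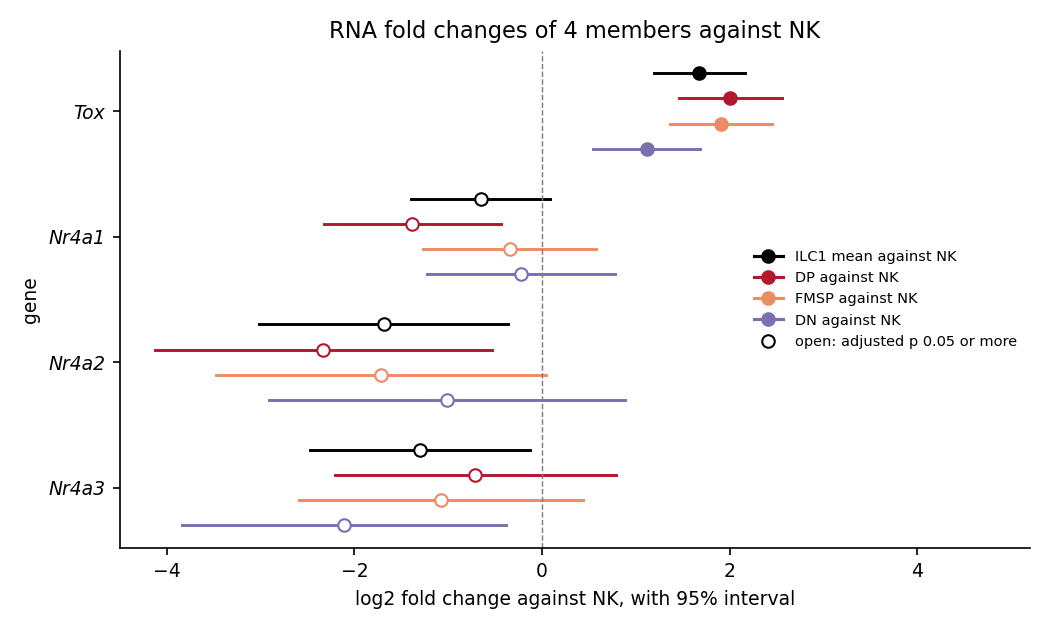
Log2 fold change against NK (x axis, with 95% intervals) of 4 members (y axis) for the ILC1 mean, DP, FMSP and DN, where filled points are called. The Tox points are all filled and above 0, and the Nr4a points are all open and below 0, lowest at -2.33 for Nr4a2 in DP.

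Tox2, which in human NK cells promotes maturation, had counts in few libraries. The FMSP libraries of mice 5 and 6 had 31 and 342 counts, DN of mouse 2 had 945 and NK of mouse 6 had 87, with 0 in the other 11 libraries, among them all 4 DP libraries. The fitted differences are not given, since they rest on these libraries, and none was called. Hepatocyte markers were highest in the same ILC1 libraries. The marker sum reached 897 and 2066 CPM in the FMSP libraries of mice 5 and 6 and 861 CPM in DN of mouse 2, and lay between 72.5 and 383 CPM in the other 12 libraries, and their part in the Tox2 counts was not tested. Of the remaining family members, Tox3 had 48 counts for FMSP of mouse 5, 4101 for DN of mouse 2 and 0 elsewhere, and Tox4, expressed in many tissues, ran from 80.9 to 153 CPM with no call (log2 -0.24 for the ILC1 mean, adjusted p = 0.476, edgeR).

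Across the 15 libraries, the genes most like each member by Pearson's r of log2 CPM were taken from 9882 candidates. For Tox they were Myo6 (r = 0.96), Cd38 (0.96) and Il21r (0.96). For Nr4a1 they were Cxcl2 (0.84), Phactr3 (0.83) and Ndrg1 (0.81). Nr4a2 went with Caprin1 (0.93) and Psip1 (0.92), and Nr4a3 with Ikzf1 (0.95), Ncoa1 (0.94) and Elovl5 (0.93). Within populations, after group means were removed, r stayed above 0.91 for the genes named for Nr4a2 and Nr4a3 and was 0.64 to 0.69 for those of Tox. Within mice 4 to 6, with group means kept, r with Nr4a2 was 0.75 for Caprin1 and 0.92 for Psip1. With Nr4a3 it was 0.74 for Ikzf1, 0.82 for Ncoa1 and 0.35 for Elovl5. With Tox it was 0.97, 0.96 and 0.99 for Myo6, Cd38 and Il21r. Nsdhl, Adk and Smo came out for Tox2 (0.85, 0.84 and 0.82), on 4 libraries with counts. The libraries share mice, depth and the split between mice 1 to 3 and 4 to 6, and these values describe them with no test. Among the members, r was 0.55 between Nr4a1 and Nr4a2, 0.10 between Nr4a1 and Nr4a3 and 0.25 between Nr4a2 and Nr4a3, and Nr4a2 and Tox had r = -0.60. Within populations these values were 0.29, 0.22, 0.31 and 0.12, so that the negative sign between Nr4a2 and Tox was not seen once group means were removed.

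Genes of the calcium pathway that induces Tox and the Nr4a genes in T cells differed little as a list. Of 16 calcineurin and NFAT genes, 1 was higher and 0 lower in ILC1s, with a median log2 difference of -0.06 beside 0.08 over all genes. The 1 called was Camk4, a calcium-dependent kinase, at 11.2 to 24.5 CPM (median 16.1) over 11 ILC1 libraries, against 0.0163 to 1.26 CPM in NK libraries (log2 4.46 ± 0.73, adjusted p = 0.00124, edgeR), with no overlap. Nfatc1 and Nfatc2, transcription factors of the pathway named after their values were seen, were not called (log2 -0.54 and 0.85, adjusted p = 0.251 and 0.233, edgeR).

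Immediate early genes, to which the Nr4a genes belong, were 1 higher and 1 lower of 19, with a median of -0.03. Jun, a subunit of AP-1, had 93.5 to 174 CPM (median 129) in ILC1 libraries, against 51.9 to 74.5 CPM in NK libraries, and was called higher (log2 1.08 ± 0.21, adjusted p = 0.00525, edgeR). Klf6, a zinc finger factor, had 166 to 310 CPM (median 247) in ILC1 libraries, against 349 to 500 CPM in NK libraries, and was called lower (log2 -0.88 ± 0.17, adjusted p = 0.00570, edgeR). Neither gene overlapped between the groups. The summed immediate early level was highest in NK of mouse 1, FMSP of mouse 3 and DP of mouse 3 (5408, 5195 and 4597 CPM). These are libraries of mice 1 to 3, which stand apart, and include both with the lowest Nr4a2 values, and the relation was not tested. None of 8 heat shock genes, which rise during tissue digestion, was called (median -0.05).

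Of 12 receptors and ectoenzymes linked to exhaustion, a list drawn up with earlier results of these data known, 6 were called higher in ILC1s and 1 lower, with a median log2 difference of 1.48. The T cell markers moved with them (8 of 12 higher, 0 lower, median 2.47), as did the 6 liver ILC1 markers (median 5.81), and the part of T cells in these receptors' values was not tested. Pdcd1, which encodes the inhibitory receptor PD-1, had 3.32 to 42.5 CPM (median 18.7) in ILC1 libraries and 0 in all 4 NK libraries. Lag3, another inhibitory receptor, had 15.3 to 50.3 CPM (median 31.3) in ILC1 libraries, against 0.344 to 2.91 CPM in NK libraries (log2 4.07 ± 0.50, adjusted p = 1.01e-04, edgeR). Both genes were without overlap. Cd160 had 496 to 1152 CPM (median 1009) in ILC1 libraries, against 69.3 to 122 CPM in NK libraries, and Cd38, an ectoenzyme that breaks down NAD, had 120 to 347 CPM (median 259) against 51.0 to 82.4 CPM. Cd101 and Tigit were the other genes called higher, and Tigit libraries overlapped. Tnfrsf9, which encodes the costimulatory receptor 4-1BB, was called lower with overlap, at 97.7 to 444 CPM (median 248) in ILC1 libraries, against 309 to 745 CPM in NK libraries (log2 -1.28 ± 0.26, adjusted p = 0.00570, edgeR).

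Other transcription factors linked to exhaustion were called in both directions, 2 higher and 2 lower of 12, with a median of 0.05. Maf had 24.1 to 111 CPM (median 81.2) in ILC1 libraries, against 11.8 to 23.8 CPM in NK libraries (log2 2.25 ± 0.37, adjusted p = 0.00117, edgeR), and Id3 was also higher (log2 2.50 ± 0.62, adjusted p = 0.0259, edgeR). Bach2, a repressor of effector genes, had 9.96 to 35.6 CPM (median 17.0) in ILC1 libraries, against 48.4 to 59.5 CPM in NK libraries (log2 -1.58 ± 0.22, adjusted p = 2.79e-04, edgeR). Prdm1, which encodes Blimp-1, was lower with overlap (log2 -1.31 ± 0.27, adjusted p = 0.00796, edgeR). Of 12 factors of ILC and NK development, Zfp683 was higher, Eomes and Tbx21 were lower, and the list's median was -0.11.

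Chromatin was read at 4 peaks for Nr4a1, 3 for Nr4a2, 6 for Nr4a3, 19 for Tox and 5 for Tox2, as the authors assigned them. The median over 18422 genes with a peak was 2, and 99.6% of these genes had fewer peaks than Tox, whose RefSeq gene body spans 305.2 kb. In the liver, where both cell types came from the same organ, 9 of 37 peaks were called between ILC1s and NK cells (24.3%), 2 higher and 7 lower, while 18.7% of all peaks were called. In salivary gland ILC1s against spleen NK cells, 19 of 37 were called (51.4%, 11 higher and 8 lower), against a background of 48.2%. Both shares lay near their backgrounds. Tox and Nr4a2 made up the 7 lower peaks in liver ILC1s.

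Nr4a2 promoter accessibility was lower in liver ILC1s than in liver NK cells and higher in salivary gland ILC1s than in either ILC1s of the liver or, at the inner peak, NK cells of the spleen. The inner peak, chr2:57114199-57117705, which the authors call a promoter and which lies within the gene body, had 202 and 190 CPM in salivary gland ILC1s, 42.5 and 47.3 CPM in liver ILC1s, 135 and 113 CPM in spleen NK cells and 85.4 and 117 CPM in liver NK cells. No pair of groups overlapped except the NK cells of the 2 organs. With 2 libraries per group, lack of overlap was common over all peaks. It held for 55.4% between liver ILC1s and liver NK cells and 75.0% between salivary gland ILC1s and spleen NK cells. For salivary gland against liver ILC1s it held for 73.7%. The liver difference was -1.17 ± 0.22 on the log2 scale (SE, adjusted p = 2.80e-06 over 51292 peaks, edgeR) and that between salivary gland and liver ILC1s was 2.12 ± 0.22 (adjusted p = 1.78e-20, edgeR). Both held in all 10 alternatives. Salivary gland ILC1s exceeded spleen NK cells by 0.66 ± 0.21 (adjusted p = 0.00381, edgeR), a call lost without replicate 2 of spleen NK cells (adjusted p = 0.161), replicate 1 of salivary gland ILC1s (0.0897) or replicate 2 of them (0.0561, edgeR).

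The start-site peak, chr2:57123167-57124922, holds the Nr4a2 window printed above. It had 114 and 114 CPM in salivary gland ILC1s, 26.0 and 34.3 CPM in liver ILC1s, 114 and 91.4 CPM in spleen NK cells and 59.4 and 75.0 CPM in liver NK cells. Liver ILC1s were the lowest group and did not overlap with any other. Of all peaks, 55.4% lacked overlap between liver ILC1s and liver NK cells, and 73.7% between the ILC1 groups. They were lower than liver NK cells by a log2 difference of -1.14 ± 0.21 (adjusted p = 1.98e-06, edgeR), and salivary gland ILC1s exceeded them by 1.91 ± 0.21 (adjusted p = 1.93e-18, edgeR), in all 10 alternatives each. Salivary gland ILC1s against spleen NK cells gave 0.15 with no call. Nr4a2 RNA, in other libraries, was lower in every liver ILC1 library than in liver NK cells without a call, so that the accessibility difference and the RNA values had the same sign in the liver.

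Nr4a1 and Nr4a3 start-site peaks did not differ between liver ILC1s and liver NK cells by the test. The Nr4a1 peak chr15:101266239-101268118 had 46.4 and 55.3 CPM in salivary gland ILC1s, 30.1 and 40.9 CPM in liver ILC1s, 55.8 and 47.8 CPM in spleen NK cells and 35.1 and 47.9 CPM in liver NK cells, and ILC1s and NK cells overlapped in both pairs. The Nr4a3 peak chr4:48044378-48045866 had 109 and 108 CPM in salivary gland ILC1s, 52.9 and 73.4 CPM in liver ILC1s, 65.9 and 58.1 CPM in spleen NK cells and 46.5 and 55.8 CPM in liver NK cells. It was higher in salivary gland ILC1s than in spleen NK cells by 0.81 ± 0.19 (adjusted p = 1.23e-04, edgeR), with no overlap, as for 75.0% of all peaks.

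A peak 10.0 kb before the Nr4a3 gene, chr4:48034092-48035054, was higher in ILC1s of both organs. It had 12.8 and 14.0 CPM in salivary gland ILC1s and 13.0 and 13.3 CPM in liver ILC1s, against 2.54 and 1.86 CPM in spleen NK cells and 6.13 and 8.69 CPM in liver NK cells. The ILC1 groups lay together and above both NK groups, which also differed (spleen minus liver -1.73 ± 0.33 on the log2 scale, adjusted p = 5.89e-06, edgeR). A lack of overlap between all ILC1 and all NK libraries, in either direction, was shown by 15.7% of all peaks. Salivary gland ILC1s exceeded spleen NK cells by 2.59 ± 0.30 (adjusted p = 3.92e-16, edgeR), and liver ILC1s exceeded liver NK cells by 0.84 ± 0.29 (adjusted p = 0.0240, edgeR). The liver call was lost without replicate 1 of liver NK cells (adjusted p = 0.307), without replicate 2 of liver ILC1s (0.162), under library totals (0.0770) and in DESeq2 (0.0566). Within the RefSeq gene body of Nr4a1, the peak chr15:101258071-101259158 was also higher in both pairs, by 0.70 ± 0.20 in liver ILC1s (adjusted p = 0.00493, edgeR) and 0.80 ± 0.18 in salivary gland ILC1s (adjusted p = 5.38e-05, edgeR). The liver call was lost without replicate 1 of liver NK cells (adjusted p = 0.118), without replicate 2 of liver ILC1s (0.408) and in DESeq2 (0.0639), and the salivary gland call without replicate 2 of salivary gland ILC1s (0.186, edgeR). Liver RNA of both genes, in other libraries, had the opposite sign without a call (ILC1 mean against NK, log2 -0.65 for Nr4a1 and -1.30 for Nr4a3).

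**Figure D3:**
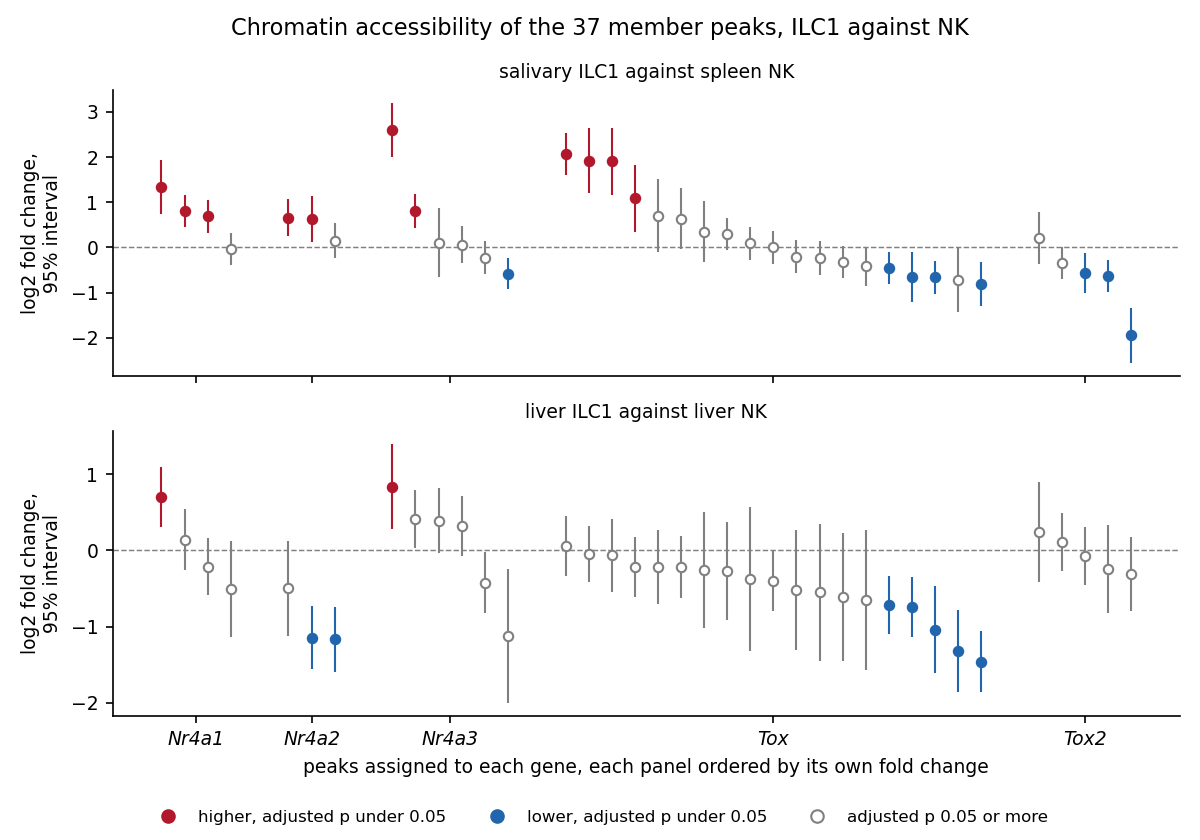
Log2 fold change of accessibility with 95% intervals (y axis) for the 37 member peaks (x axis, grouped by gene), for salivary gland ILC1s against spleen NK cells above and liver ILC1s against liver NK cells below. In the liver no Tox peak is called higher and 5 are called lower, as are 2 of the 3 Nr4a2 peaks.

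Tox showed more RNA in liver ILC1s, but none of its 19 peaks was called higher in liver ILC1s than in liver NK cells and 5 were called lower. The share of all peaks called was 9.83% higher and 8.85% lower. The median log2 difference over the Tox peaks was -0.40, and 1 of 19 values was above 0, while the median over all peaks was 0.00051. Summed over the 19 peaks, Tox had 271 and 275 CPM in liver ILC1s, against 361 and 359 CPM in liver NK cells. The authors' table gives Tox a pair of promoter peaks. That at the start of the gene, chr4:6988769-6991737, from which distances are counted, had 63.4 and 79.2 CPM in liver ILC1s, against 70.1 and 67.2 CPM in liver NK cells, and these overlapped (log2 0.06). The other, chr4:6688476-6689198, lies near the far end of the gene and had 2.67 and 3.01 CPM in salivary gland ILC1s, 4.19 and 2.93 CPM in liver ILC1s, 4.83 and 4.59 CPM in spleen NK cells and 3.39 and 6.76 CPM in liver NK cells. It was not called in either pair, and over both organs it was lower in ILC1s by a log2 difference of -0.62 ± 0.27 (adjusted p = 0.0492, edgeR), a call that held in 5 of 13 alternatives (-0.84 to -0.34). It was lost without replicate 2 of any group, or without replicate 1 of salivary gland ILC1s or of spleen NK cells. RNA and ATAC values come from different libraries and, by the design text, from different gates. The labels do not state whether they share animals, and the part of these differences was not tested.

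The mid-gene intron peak chr4:6843614-6844907, 146.0 kb from the promoter peak, had the strongest liver difference. It had 26.5 and 32.5 CPM in salivary gland ILC1s, 13.2 and 11.6 CPM in liver ILC1s, 40.6 and 33.6 CPM in spleen NK cells and 33.4 and 34.4 CPM in liver NK cells. Liver ILC1s were the lowest group by far. They were lower than liver NK cells by a log2 difference of -1.46 ± 0.20 (adjusted p = 1.10e-10, edgeR) and salivary gland ILC1s exceeded them by 1.27 ± 0.20 (adjusted p = 1.95e-09, edgeR), in all 10 alternatives each. An intron peak at chr4:6800091-6800875 was lower in ILC1s of both organs, with 6.77 and 7.91 CPM in salivary gland ILC1s and 5.23 and 7.31 CPM in liver ILC1s, against 13.1 and 12.8 CPM in spleen NK cells and 15.3 and 16.6 CPM in liver NK cells. Its differences were -0.81 ± 0.25 in the salivary gland and spleen pair and -1.32 ± 0.28 in the liver (adjusted p = 0.00347 and 4.89e-05, edgeR). Averaged over the organs, ILC1s against NK cells gave 19 of 37 called peaks (7 higher, 12 lower, against 44.0% of all peaks), of which Tox had 3 higher and 7 lower.

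Other Tox peaks were most accessible in salivary gland ILC1s. The intron peak chr4:6771762-6773519, 217.6 kb from the promoter peak, had 23.9 and 25.7 CPM in salivary gland ILC1s, 11.2 and 11.5 CPM in liver ILC1s, 4.99 and 6.93 CPM in spleen NK cells and 12.7 and 11.1 CPM in liver NK cells. Salivary gland ILC1s did not overlap with any group, and liver ILC1s overlapped with liver NK cells. Of all peaks, 75.0% lacked overlap between salivary gland ILC1s and spleen NK cells, and 73.7% between the ILC1 groups. The difference from spleen NK cells was 2.07 ± 0.23 (adjusted p = 3.32e-17, edgeR) and that from liver ILC1s 1.13 ± 0.22 (adjusted p = 3.46e-06, edgeR). A pair of peaks 9.9 and 8.9 kb beyond the far end of the gene, chr4:6675674-6676434 and chr4:6676779-6677455, were also highest in salivary gland ILC1s, at 6.71 to 8.48 CPM, against 1.29 to 3.65 CPM in the other 3 groups, which overlapped.

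**Figure D4:**
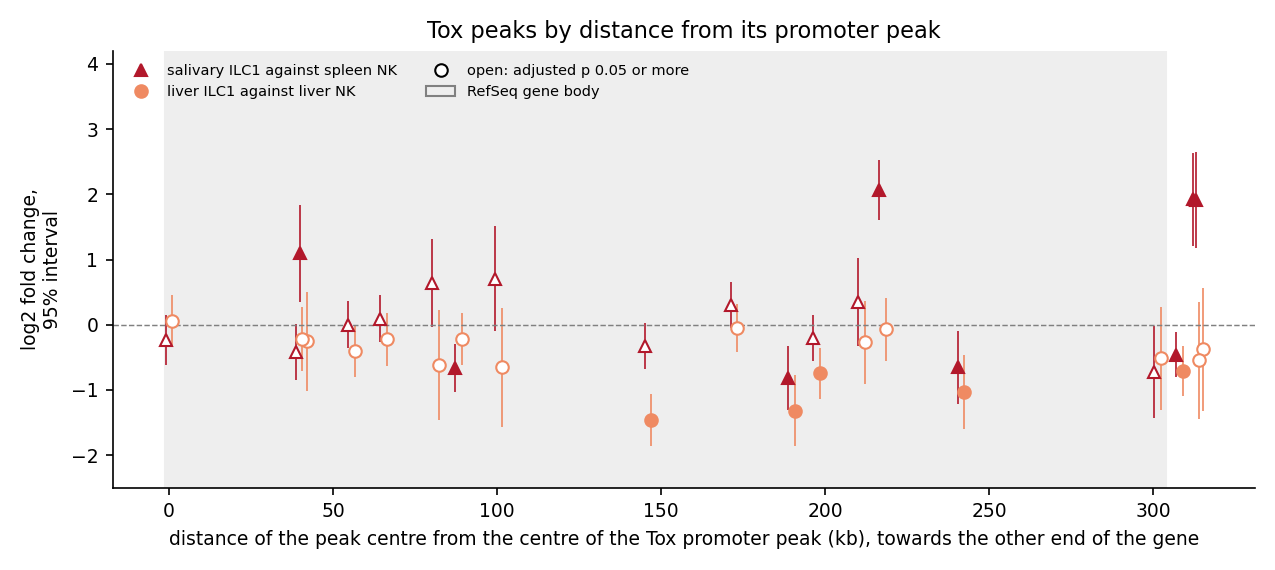
Log2 fold change with 95% intervals (y axis) of the 19 Tox peaks against the distance of their centres from that of the promoter peak (x axis, kb, towards the other end of the gene), with triangles for salivary gland ILC1s against spleen NK cells, circles for liver ILC1s against liver NK cells, and the gene body in grey. The lowest circle is the mid-gene peak at 146.0 kb, and the highest triangle is the peak at 217.6 kb.

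Between organs, 21 of 37 peaks were called for salivary gland against liver ILC1s (56.8%, 18 higher and 3 lower), where 48.7% of all peaks were called. All 3 Nr4a2 peaks were higher, as were 3 of 4 for Nr4a1, 3 of 6 for Nr4a3 and 9 of 19 for Tox, with 2 Tox peaks and 1 Tox2 peak lower. For spleen against liver NK cells, 12 were called (6 higher, 6 lower), where the background was 40.6%. Depth moved with organ, from 16058700 to 26944890 counts in salivary gland libraries, 11101944 to 14270504 in spleen libraries and 5609587 to 9957335 in liver libraries, and scaling mattered here. With library totals alone the median of all peaks moved from -0.04 to -0.29 on the log2 scale for salivary gland against liver ILC1s and from -0.11 to -0.48 for spleen against liver NK cells. The members then split into 14 higher and 3 lower, and into 3 higher and 10 lower. Without replicate 2 of salivary gland ILC1s, 11 of the 21 peaks were called between ILC1s, and 12 in place of 19 against spleen NK cells.

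The difference between the ILC1-NK contrasts of the 2 pairs, a comparison added after the data were seen, was called for 11 of 37 peaks (10 higher and 1 lower in the salivary gland and spleen pair), where 30.0% of all peaks were called. All 3 Nr4a2 peaks were among them, at 1.83 ± 0.30 for the inner peak and 1.30 ± 0.28 for the start-site peak on the log2 scale (adjusted p = 4.61e-08 and 8.39e-05, edgeR). The Tox2 intron peak chr2:163298836-163300538 was the 1 that was lower. It had 2.53 and 2.06 CPM in salivary gland ILC1s, 11.2 and 7.70 CPM in liver ILC1s, 9.49 and 8.01 CPM in spleen NK cells and 11.7 and 10.3 CPM in liver NK cells. Salivary gland ILC1s lay below all other groups, by -1.95 ± 0.31 against spleen NK cells (adjusted p = 2.73e-09, edgeR) and -2.04 ± 0.31 against liver ILC1s (adjusted p = 1.28e-09, edgeR). None of the 5 Tox2 peaks was called in the liver pair, where Tox2 RNA was at 0 in most libraries.

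**Figure D5:**
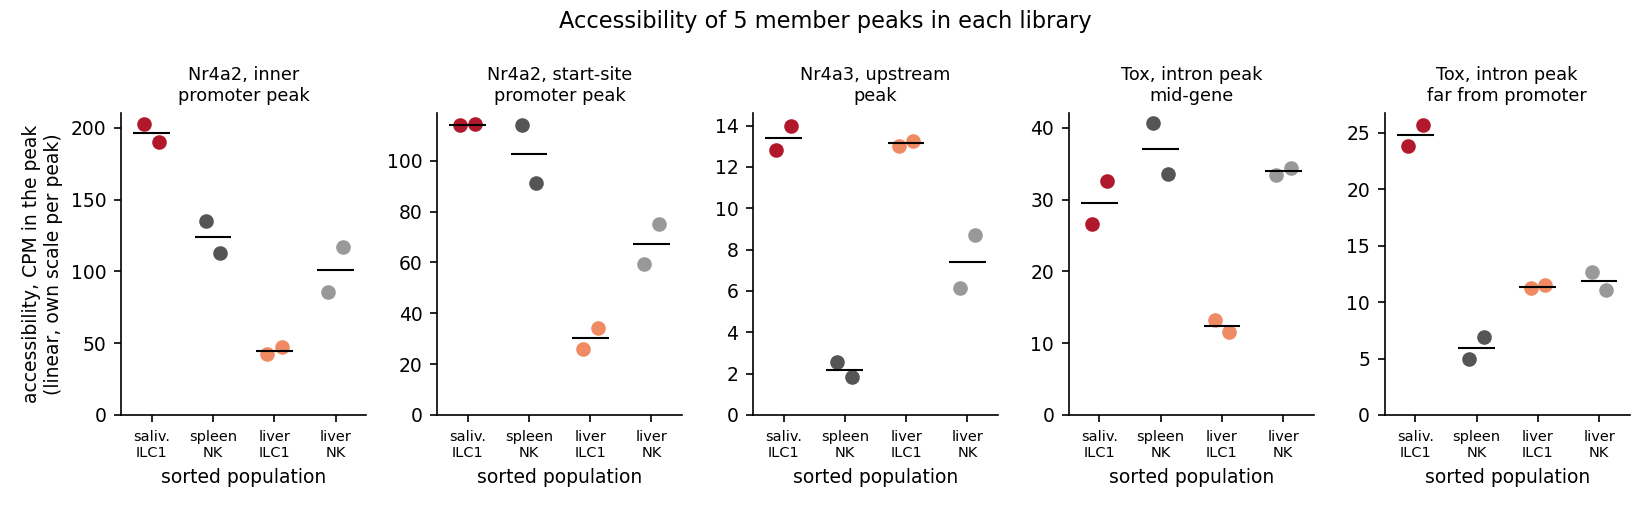
Accessibility (CPM, linear, own scale per peak) of 5 peaks in each library, with salivary gland ILC1s, spleen NK cells, liver ILC1s and liver NK cells on the x axis, points for the 2 libraries and lines for their mean. Liver ILC1s are lowest at both Nr4a2 peaks and at the mid-gene Tox peak, and at the Nr4a3 peak both ILC1 groups lie above both NK groups.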

How the data were processed

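RNA was measured in 15 libraries of 4 liver populations and chromatin accessibility in 8 libraries of 4 populations. The deposited RNA values are the authors' expected counts for each gene, stored as whole numbers, and the submitters' processing notes name Salmon 1.6, DESeq2 and mm10. The deposited ATAC values are the authors' counts of reads per peak in 1 shared peak set with a gene and a type for each peak, and the notes name Bowtie2, SAMtools and MACS2. Whether gene length entered the RNA values is not stated, so levels are not compared between genes.

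Both tables were tested with edgeR 4.0.16 in R 4.3.3 (quasi-likelihood, robust, TMM scaling, filterByExpr at a minimum count of 10), which kept 17124 genes and 51292 peaks, in 1 fit per assay with 1 mean per group. P-values are 2-sided and Benjamini-Hochberg adjusted over all features of a comparison. Features with adjusted p below 0.05 are called. CPM use TMM-adjusted library sizes, and log2 CPM a prior count of 2. DESeq2 1.42.0 and the other alternatives are in the closing section. The fits were also run on counts simulated from the data's own means and spread, without a mouse effect. Such a run cannot show whether the model holds for these data. The members and gene lists were chosen with earlier results of these data known, and the difference between the pairs of the ATAC groups was added after seeing the data. All members and member peaks could be named. From lists of at most 12 measured genes any gene could be named, from longer ones at most 4 called genes in each direction, and per member the 3 genes with the highest r. Of these, 1 gene is not reported here.

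RNA mouse numbers pair populations of 1 animal. Deviations from the group means correlated at 0.0336 to 0.469 over 16 same-mouse pairs (median 0.113), against a median of -0.0266 over 68 other pairs. ATAC numbers correlated at -0.120 to 0.179 over 12 pairs. With 2 libraries per group each value occurs for both replicates, and pairs of unlike number mirror it, so the 12 are not separate values. Whether a number marks 1 animal across organs is not stated.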

Additional observations from a re-analysis of the deposited data

Results flagged for a closer look

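In 3 of the 14 groups of 4 libraries tested, 1 library stood far from the others. Chance flags about 1 in 20 groups of continuous values, a rate that does not apply to the Tox2 groups, where most libraries are at 0 and a library with counts stands apart by construction. Nr4a1 was at 101 CPM in FMSP of mouse 5, where the other FMSP libraries had 32.5 to 41.9. Tox2 was at 6.03 CPM in FMSP of mouse 6 and at 1.30 CPM in NK of mouse 6, where the others were at or near 0.

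The ILC1-NK difference itself differed between the salivary gland and spleen pair and the liver pair at 11 of the 37 peaks (29.7%), by the test of the difference in edgeR, a share at the background of 30.0% over all peaks. The first pair minus the second was 1.83, 1.30 and 1.12 on the log2 scale at the inner, start-site and 3.3 kb distal Nr4a2 peaks, the last of which lost its call without 1 of 4 libraries in turn. It was 1.84 at the Nr4a1 peak just past the gene end, 1.76 at the upstream Nr4a3 peak and -1.70 at the Tox2 intron peak. For Tox it was 2.28 and 2.47 at the pair of peaks beyond the gene, both lost without replicate 1 of liver NK cells (1.43 and 1.83), and 2.13, 1.13 and 1.35 at intron peaks 217.6, 146.0 and 40.9 kb from the promoter peak. The 1.35 was called in 4 of 13 alternatives.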

How the results depend on the processing

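Tox stayed called for DP, FMSP and the ILC1 mean against NK in every alternative run. The number of called members against NK was 1 for the ILC1 mean, DP, FMSP and DN. It became 2 for the ILC1 mean within mice 4 to 6. For DP it became 3 in DESeq2, 2 with the mouse as a replicate block and 2 within mice 4 to 6, and it ran from 1 to 2 with each library left out. For DN it became 2 in DESeq2 and 0 with only the groups compared, and ran from 0 to 1 with each library left out. For DP against DN it became 1 in DESeq2. ATAC members called ran from 12 to 15 for salivary gland ILC1s against spleen NK cells and from 11 to 19 against liver ILC1s with each library left out, and the replicate block left the counts at 19 and 21. The replicate numbers of the ATAC libraries changed no member count as a block. Among members, the mouse block changed no RNA call other than that of Nr4a1 in DP. It raised the calls over all genes from 1014 to 2168 for the ILC1 mean, 699 to 1647 for DP, 697 to 1682 for FMSP and 512 to 1191 for DN. DESeq2 called 2005, 1634, 1568 and 1553, and mice 4 to 6 gave 2392, 1662, 1620 and 1458. With library totals the share of higher calls for the ILC1 mean moved from 48.9% to 60.0% and the median of all genes from 0.08 to 0.21 on the log2 scale. No called value changed its sign. Among single genes 8 alternatives gained and 6 lost a call, and among single peaks 33 gained and 126 lost one. Of the 9 liver peaks called, 5 were called in every alternative, as were 11 of 19 for salivary gland ILC1s against spleen NK cells, 11 of 21 against liver ILC1s and 5 of 12 for spleen against liver NK cells. The cause was not tested. With 2 libraries per group the ATAC spread rests on few samples, and Nr4a2 and Nr4a3 had few counts.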
